A study of Mus musculus with 8 samples.

Results

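The interferon-inducible gene families examined here are the Ifit, Ifitm, Gbp, Oas (with Oasl), Irgm and Iigp genes of the mouse, and the Ifi genes with a numbered symbol. They were taken by symbol from the protein-coding genes of a RefSeq table of build GRCm38, which gave 56 members among 21900 genes. Binding of DC-SCRIPT, the zinc finger protein encoded by Zfp366, was measured by CUT&Tag, in which an antibody brings a transposase to a protein so that nearby DNA is tagged and sequenced. The cells were conventional dendritic cells sorted from the spleens of female C57BL/6 mice, as the subsets cDC1 and cDC2. Wild-type animals (zfp366+/+) gave 3 libraries of cDC1 and 1 of cDC2, and knockout animals (zfp366-/-) gave 2 libraries of each subset, every library from a pool of mice. All groups were untreated as far as the labels state, and these do not state the age of the mice or the deleted part of Zfp366.

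For each subset a single peak list was analysed, in which 1 set of wild-type tags was compared with 1 set of knockout tags. Libraries could not be compared singly, so the spread between mouse pools is unknown and each statement compares these tag sets. In cDC1 the wild-type set held 35.5 M tags and the knockout set 12.1 M; in cDC2 these numbers were 4.77 M and 6.83 M. A peak entered a list only with a fold of wild type over knockout of at least 4.0, so a fold above that limit is no finding, and a gene without a peak may still be bound below the limits. The unit of signal is the normalised tag, a tag in a peak per 10000000 tags of its set. Of places in the genome, above and below mean higher and lower coordinates, whatever the strand of the gene. The score and the fold of each peak are the authors' values; the 95% intervals of a fold were computed here from tag numbers and describe only the error of counting. Knockout tags at the 10 cDC1 peaks of Zfp366 itself ran from 0.5 to 8.0, and the lists hold no expression values with which to check the identity of the sorted cells. In cDC1 peaks were assigned to 8 of 8 cDC1 markers, 5 of 6 cDC2 markers, 3 of 4 plasmacytoid, 0 of 3 B cell, 1 of 3 T and NK cell and 2 of 3 macrophage markers. In cDC2 the counts were 3, 5, 1, 0, 0 and 1. Over all protein-coding genes, 51.3% had a cDC1 peak and 9.53% a cDC2 peak, so these small counts do not check cell identity.

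Interferons are cytokines released on infection that act through cell-surface receptors and JAK kinases. The signal reaches target genes through promoter elements, among them the interferon-stimulated response element (ISRE) and the gamma-activated site. The families described here are classical targets of this pathway and act inside the cell against viruses, bacteria and parasites. Dendritic cells are both a source of interferons and responders to them. Most family members arose by gene duplication and lie side by side in the genome, so several may share 1 stretch of regulatory DNA.

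Of the 9 promoters with a peak over them in either list, 5 are shown first as examples from the Ifit, Oas, Gbp and Ifi200 families, with 2 that had none. They were chosen with their values known, because they set the listed peaks beside the DNA element the families are known for. Each line gives the 250 bases before the start of the gene, 5′ to 3′ on the strand of the gene, from RefSeq, build GRCm38.p6. Capitals mark the core of the ISRE, searched as GAAANNGAA on both strands, with overlapping matches joined. Ifit2, Gbp5, Gbp7 and Ifi205 had a cDC1 peak over this stretch and Oas3 a cDC2 peak, whereas Ifit1 and Ifit3 had none in either list.
Ifit2: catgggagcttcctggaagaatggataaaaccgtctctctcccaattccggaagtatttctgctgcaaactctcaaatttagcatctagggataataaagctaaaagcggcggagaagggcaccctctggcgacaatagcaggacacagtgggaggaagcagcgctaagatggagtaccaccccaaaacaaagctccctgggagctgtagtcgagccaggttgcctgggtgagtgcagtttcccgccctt
Oas3: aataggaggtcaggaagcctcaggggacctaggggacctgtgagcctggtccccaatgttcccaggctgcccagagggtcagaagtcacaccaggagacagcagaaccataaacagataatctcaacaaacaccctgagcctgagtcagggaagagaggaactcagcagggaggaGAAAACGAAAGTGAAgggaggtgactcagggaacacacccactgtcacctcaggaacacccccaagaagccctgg
Gbp5: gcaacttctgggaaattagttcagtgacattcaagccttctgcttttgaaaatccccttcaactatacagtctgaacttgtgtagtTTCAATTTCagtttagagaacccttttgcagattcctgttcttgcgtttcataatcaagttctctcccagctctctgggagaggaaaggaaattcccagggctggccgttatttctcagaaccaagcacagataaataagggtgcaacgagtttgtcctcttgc
Gbp7: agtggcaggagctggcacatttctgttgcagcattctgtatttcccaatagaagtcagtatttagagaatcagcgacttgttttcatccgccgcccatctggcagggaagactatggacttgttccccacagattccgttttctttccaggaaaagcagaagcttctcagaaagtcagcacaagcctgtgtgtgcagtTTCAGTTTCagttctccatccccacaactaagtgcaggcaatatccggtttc
Ifi205: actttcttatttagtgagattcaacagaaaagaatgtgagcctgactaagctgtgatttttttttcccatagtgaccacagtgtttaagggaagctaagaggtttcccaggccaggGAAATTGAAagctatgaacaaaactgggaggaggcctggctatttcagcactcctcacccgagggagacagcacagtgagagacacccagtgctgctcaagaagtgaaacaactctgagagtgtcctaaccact
Ifit1: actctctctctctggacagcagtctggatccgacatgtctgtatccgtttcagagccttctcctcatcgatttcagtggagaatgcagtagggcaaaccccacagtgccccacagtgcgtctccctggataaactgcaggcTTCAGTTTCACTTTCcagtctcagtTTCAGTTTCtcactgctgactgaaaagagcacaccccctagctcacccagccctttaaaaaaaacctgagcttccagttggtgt
Ifit3: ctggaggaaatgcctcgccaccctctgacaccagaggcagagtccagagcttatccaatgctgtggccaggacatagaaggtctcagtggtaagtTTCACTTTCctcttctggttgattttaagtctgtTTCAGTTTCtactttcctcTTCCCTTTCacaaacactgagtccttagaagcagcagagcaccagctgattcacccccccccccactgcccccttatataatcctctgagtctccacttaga

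The Ifit2 stretch, at chr19:34550444-34550693 on the plus strand, held no match of the core. The cDC1 peak covered its last 47 bases and the cDC2 peak its last 23. The Oas3 stretch, at chr5:120777660-120777909 on the minus strand, held 2 overlapping matches that began 75 and 69 bases before the start, both inside the 191 bases under the cDC2 peak. At Gbp7, chr3:142530086-142530335, plus strand, the match 52 bases before the start lay inside the peak. At Ifi205, chr1:174031756-174032005, minus strand, the match 134 bases before the start also lay inside the peak. In the Gbp5 stretch, chr3:142496684-142496933, plus strand, the match 164 bases before the start lay outside the 138 bases that the peak covered. Ifit1, chr19:34640639-34640888, and Ifit3, chr19:34583279-34583528, both on the plus strand, held 3 matches each and no peak. The element and the peaks were thus found together at some promoters and apart at others.

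RefSeq promoter windows, from 250 bases before to 50 bases after a start, were matched by gene for 43 of the 56 members. The ISRE core stood in the window of 28 of these 43 members, which is 65.1%, against 9.43% of 17492 genes with a window. Other motifs, searched on both strands, were found in 9 members for the gamma-activated site (TTCNNNGAA, 20.9% against 8.92% of genes), in 18 for the ETS core (GAGGAA, 41.9% against 30.5%), in 11 for the AP-1 site (TGANTCA, 25.6% against 8.12%) and in 5 for the ETS-IRF composite (GGAANNGAA, 11.6% against 8.95%). The composite can overlap with the ISRE core and with the ETS core. A cDC1 peak overlapped the window of 6 of the 28 members with the ISRE core and of 2 of the 15 without it. Those shares, 21.4% and 13.3%, stand beside 24.1% and 24.4% of all genes with and without the core. A match is a sequence of letters and not a measured site.

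In cDC1, 30 of the 56 members had at least 1 peak, which is 53.6%, against 51.3% of all protein-coding genes. The members' share was close to the background, so the list as a whole did not stand apart by this count. Together the 30 genes carried 64 of the 31473 cDC1 peaks, with Ifi203 at 6, Ifi47 and Ifitm6 at 4 each, and Ifit2, Ifit1bl1, Ifitm1, Ifitm3, Gbp4, Ifi204 and Ifi205 at 3 each. Oasl2, Ifitm10, Gbp3, Gbp5, Gbp8, Irgm2, Ifi202b, Ifi209 and Ifi211 had 2 each, and the remaining 11 genes had 1. Members and all protein-coding genes had similar median lengths, 16.0 kb and 17.1 kb. Counting only peaks centred inside the gene left 18 members (32.1%, against 37.3% of all genes), and giving a peak to every gene within 10 kb gave 38 (67.9%, against 57.1%). The families differed in how many members had a peak: 2 of 6 Ifit, 4 of 11 Oas, 5 of 7 Ifitm, 8 of 10 Gbp, 2 of 4 IRG GTPases (Irgm1, Irgm2, Iigp1 and Ifi47), 9 of 11 Ifi200 genes and 0 of 7 other Ifi genes. These families were not tested against each other.

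**Figure D1:**
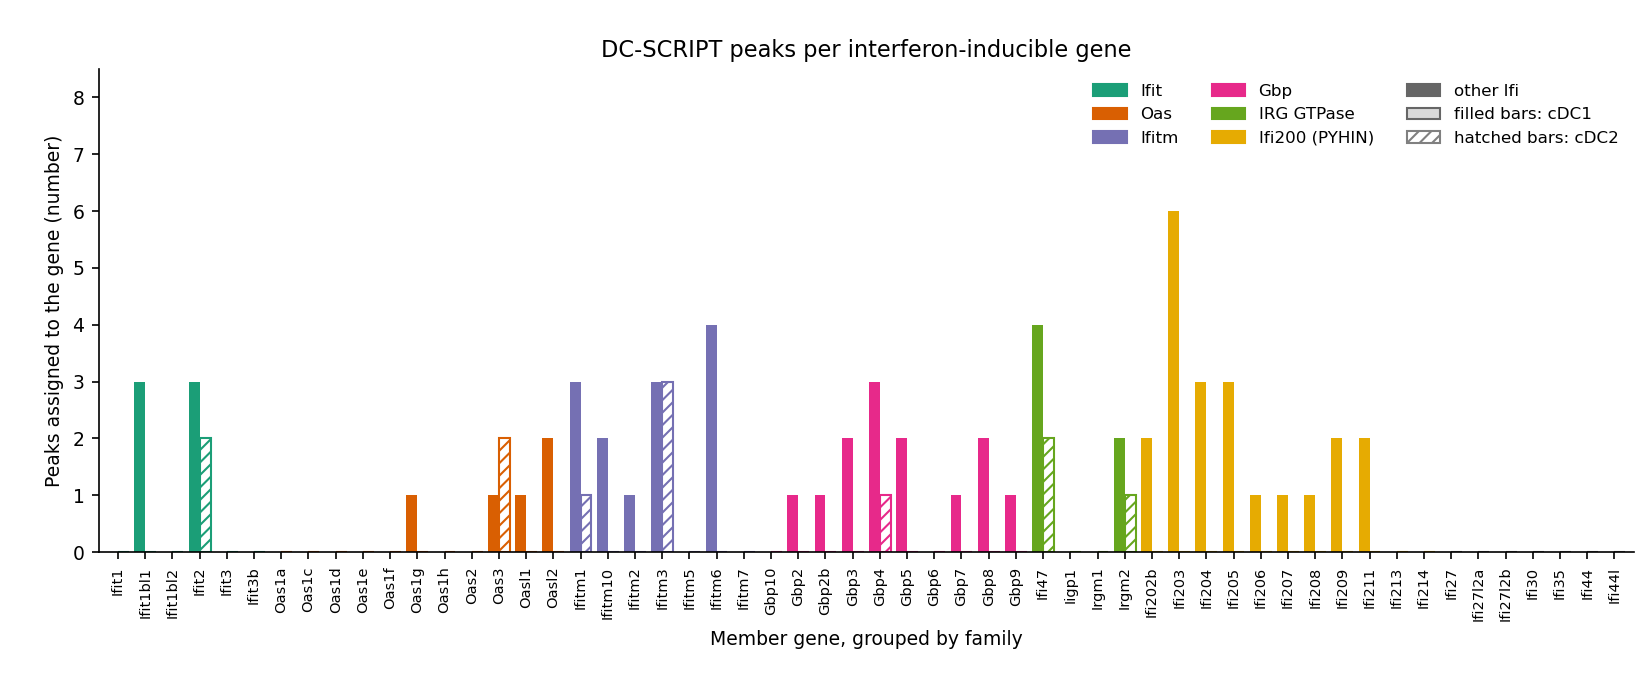
Number of peaks (vertical axis) assigned to each of the 56 member genes (horizontal axis), with filled bars for cDC1, hatched bars for cDC2 and colours for families. The Ifi200 and Gbp groups carry cDC1 peaks at most members, and the group of other Ifi genes carries none in either subset.

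Over the 64 cDC1 member peaks, wild-type signal had a median of 13.8 normalised tags (range 4.93 to 124.9), against 15.5 over all cDC1 peaks, and 28 of the 64 lay above the latter. Knockout signal had a median of 1.24 normalised tags (range 0.412 to 9.89), against 1.65 over all peaks. The knockout tags were at the lowest listed value, 0.5 tag, which also stands for no tag, at 15 of the 64 peaks (23.4%, against 20.1% of all peaks). The median fold was 12.2 for the members and 10.2 for the whole list. Peaks centred inside the gene made up 46.9% of the member peaks and 56.0% of all assigned peaks, and 27.3% of 55 member peaks with a known start lay within 1 kb of it, against 21.9% of all. The median distance to a known start was 7.64 kb for the member peaks and 16.7 kb for all. Inside the gene or within 10 kb of it lay 84.4% of the member peaks, against 75.4% of all assigned peaks. By strength, then, most of the member peaks were ordinary members of the list, and a few were not. By position, a smaller share lay inside the gene, but the member peaks lay closer to starts than the whole list. These differences were not tested.

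**Figure D2:**
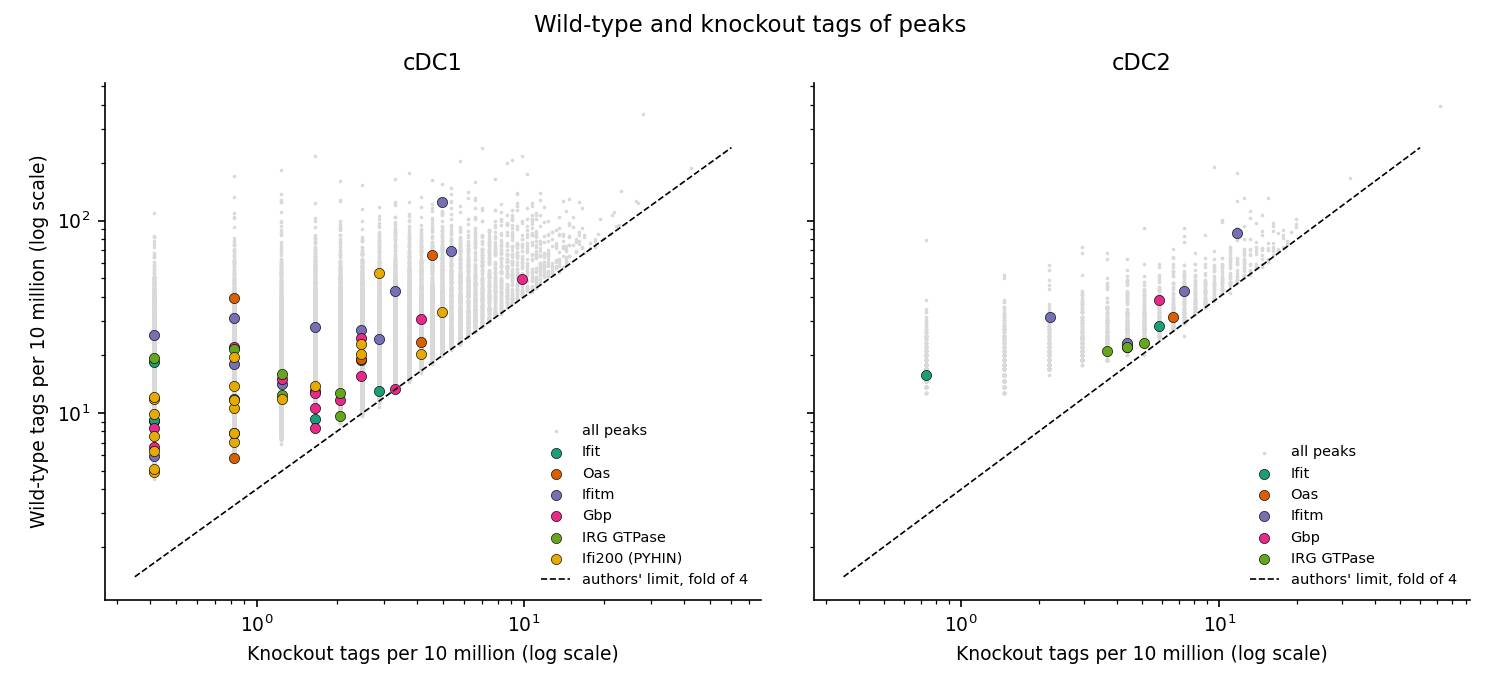
Wild-type tags (vertical axis) against knockout tags (horizontal axis) of each peak, both normalised to the same total, on log scales, for cDC1 (left) and cDC2 (right); grey points are all peaks, coloured points are member peaks by family, and the dashed line marks the authors' fold limit of 4. The highest member peak in each panel belongs to Ifitm3, at 124.9 wild-type tags in cDC1 and 85.9 in cDC2.

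The Ifitm genes encode small membrane proteins that hinder the entry of enveloped viruses into cells. Their cluster on chromosome 7 held the strongest member peak of both subsets. It lay at chr7:140999377-140999567, between Ifitm1 and Ifitm3, 10.1 kb below the lower end of Ifitm3 (chr7:141009590-141010744, minus strand) and 11.3 kb from its start, on the downstream side. In cDC1 it held 124.9 normalised tags in wild type and 4.95 in knockout, a fold of 25.26 (95% interval 11.5 to 69.2), and ranked 44 of 31473 by wild-type tags. In cDC2 the peak at the same place held 85.9 and 11.7, a fold of 7.59 (95% interval 3.57 to 18.9), and ranked 28 of 2776. Wild-type signal there was the highest of the member peaks in both subsets. The knockout signal of 11.7 was also the highest of the cDC2 member peaks, and the 4.95 in cDC1 lay above the median of 1.65 over that list. Which gene this site acts on, if any, is not shown by its position.

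Around it, the intergenic stretch carried further peaks. Ifitm1 had 3 cDC1 peaks above its upper end, and the one 1.62 kb away held 31.0 normalised tags in wild type and 0.824 in knockout (fold 37.6, 95% interval 6.61 to 1500). The one 12.1 kb away held 25.4 tags against the lowest knockout value, with an exact lower 95% limit of the fold of 8.18. Ifitm3 had 2 more, at 18.0 and 14.1 wild-type tags. Ifitm2, whose product acts mainly in endosomes, had 1 peak of 43.0 tags in wild type and 3.30 in knockout, 600 bp below the gene (fold 13.03, 95% interval 5.01 to 48.6). Ifitm6 had 4 peaks beyond its upper end, and the strongest held 27.1 tags in wild type and 2.47 in knockout (fold 10.94, 95% interval 3.63 to 54.0). Without those 4, which lie outside it, the span of 67.9 kb from Ifitm5 to Ifitm6 held 7 cDC1 peaks. This is 10.3 per 100 kb, against 1.17 per 100 kb over the chromosomes as a whole, which include long stretches without genes. Spans of other member clusters ranged from 0 (Ifi44 to Ifi44l) through 1.05 (Oas2 to Oas1d) to 7.32 (Oasl2 to Oasl1) and 8.20 (Irgm1 to Ifi47).

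2 other Ifitm genes lay elsewhere. Ifitm10, which is not a known interferon target and was taken by its symbol, carried a cDC1 peak inside the gene at chr7:142340464-142340654 with 69.9 normalised tags in wild type and 5.36 in knockout (fold 13.04, 95% interval 5.79 to 30.5). Ifitm7 on chromosome 16 had no peak in either list, and its nearest cDC1 peak lay 78.7 kb away. Ifitm5, a gene of bone-forming cells, had none either, but a cDC1 peak of 74.6 tags assigned to its neighbour Pgghg lay 1.73 kb from it. None of the 7 Ifitm genes had a peak over its promoter window.

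**Figure D3:**
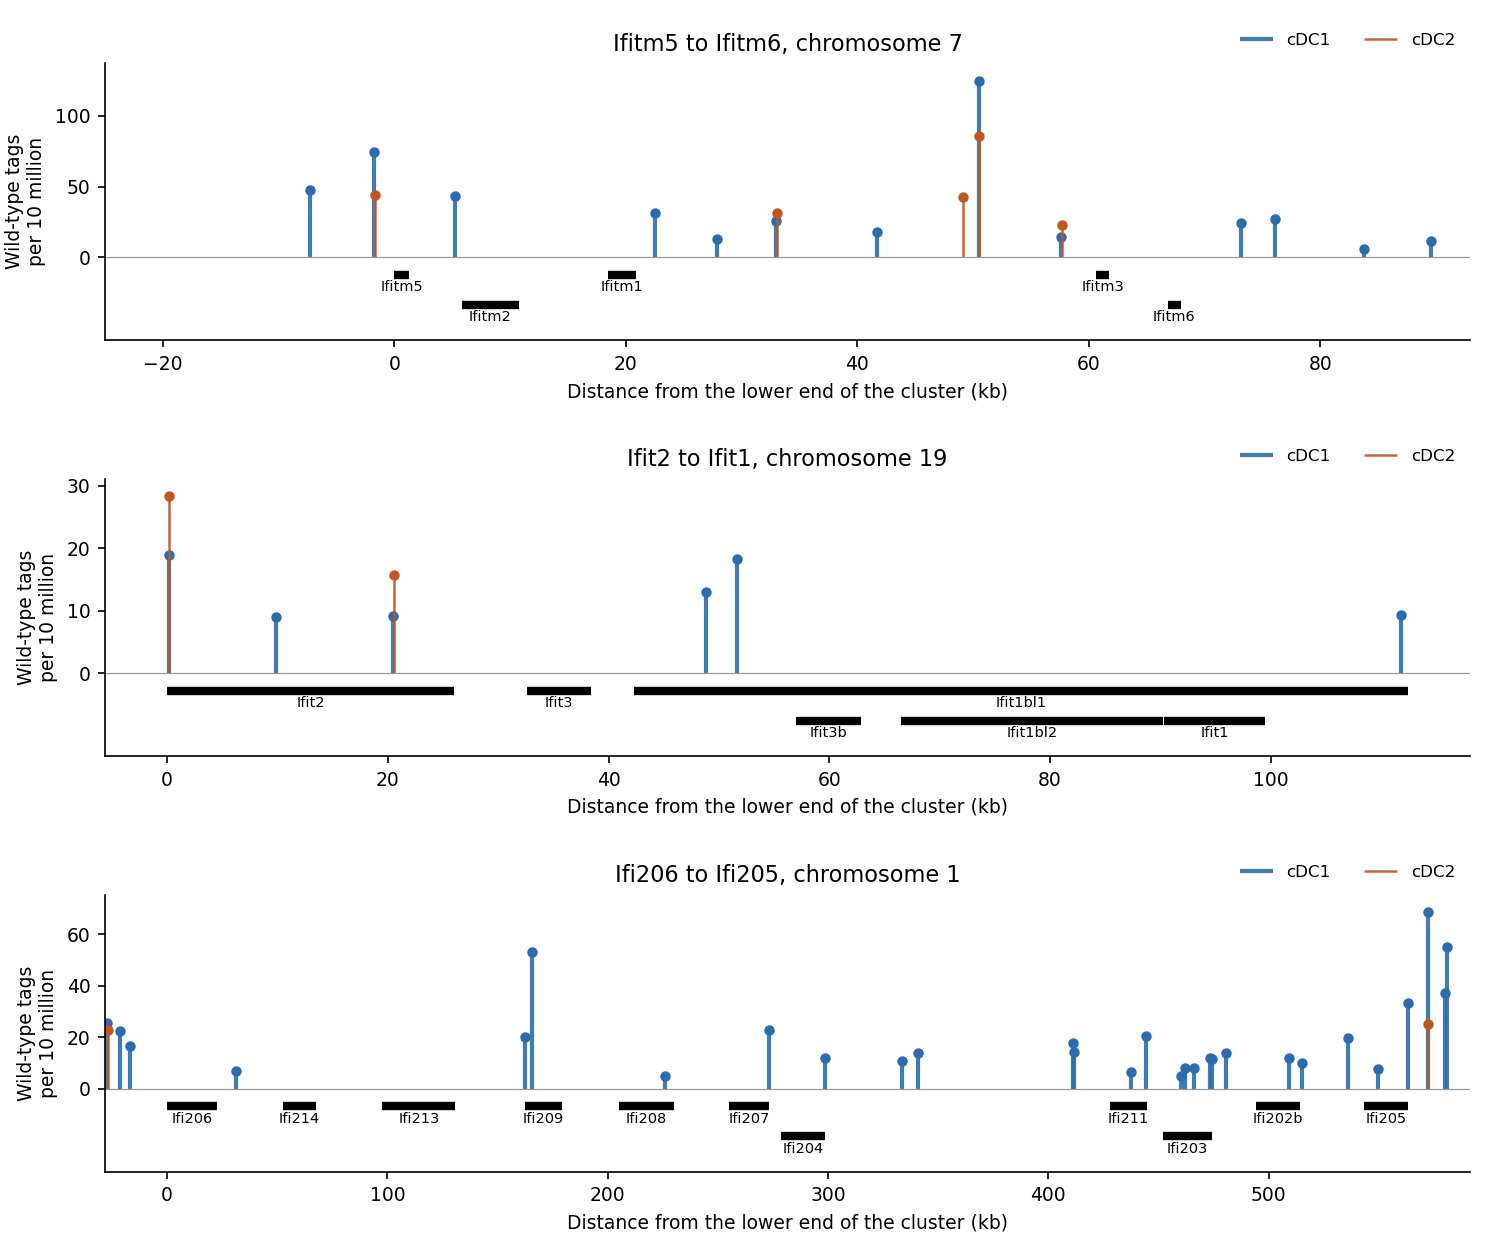
Maps of 3 member clusters, with normalised wild-type tags (vertical axis) of every peak in cDC1 (blue) and cDC2 (orange) against distance from the lower end of the cluster in kb (horizontal axis); black bars are the member genes. The Ifitm map is led by the peak of 124.9 tags, the Ifit map has peaks at Ifit2 and Ifit1bl1 and none at Ifit3 or Ifit1, and the Ifi200 map shows cDC1 peaks spread over the cluster and no cDC2 peak within it.

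Some of the Oas genes encode enzymes that sense double-stranded RNA and make an oligoadenylate that activates RNase L, and the Oasl genes encode related proteins. Oasl1 carried the strongest Oas peak. This single peak, at chr5:114921899-114922089 and 1.15 kb below the gene, held 66.1 normalised tags in wild type and 4.53 in knockout (fold 14.57, 95% interval 6.04 to 36.7). Oasl2 had 2 peaks. The stronger lay 4.79 kb above the gene and 20.10 kb after its start, between Oasl2 and Oasl1. It held 39.5 tags in wild type and 0.824 in knockout (fold 47.85, 95% interval 8.46 to 1905). The weaker, inside Oasl2 and 0.65 kb after its start, held 19.0 tags against 2.47. At the other locus, Oas3 had 1 cDC1 peak inside the gene, with 23.3 tags in wild type and 4.12 in knockout (fold 5.64, 95% interval 2.34 to 17.9), and Oas1g had 1 of 5.78 tags. Oas1a, Oas1c, Oas1d, Oas1e, Oas1f, Oas1h and Oas2 had none. The peak assigned to Oas1g lay 1.31 kb from it and 1.33 kb from Oas1h, so the choice between these 2 genes is nearly even.

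The Ifit genes encode proteins that bind viral RNA and block its translation. Ifit2 carried 3 cDC1 peaks, all inside the gene: 18.9 normalised tags in wild type and 2.47 in knockout at the start (chr19:34550647-34550837, fold 7.63, 95% interval 2.50 to 38.0), 9.02 tags 9.32 kb after the start and 9.16 tags 19.97 kb after it. Knockout tags were at the lowest value at both inner peaks. Ifit1bl1 also had 3, and the strongest held 18.3 tags against the lowest knockout value (exact lower 95% limit of the fold 5.86). Its listed gene spans 70.1 kb and contains Ifit3b, Ifit1bl2 and Ifit1. Its 3 peaks lay below Ifit3b or above Ifit1, and none between those genes. Ifit1, Ifit3, Ifit3b and Ifit1bl2 had no peak, and the peak nearest to Ifit1 and that nearest to Ifit3 lay 12.3 kb and 10.4 kb away. Peaks at Ifit2 and none at Ifit1 or Ifit3 describe 2 tag sets; a difference between these genes was not tested.

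The Gbp genes encode guanylate-binding proteins, large GTPases that attack vacuoles holding bacteria or parasites. All 5 members on chromosome 3 had a cDC1 peak, and Gbp5, Gbp7 and Gbp2 had one over the promoter window. At Gbp7 that peak held 22.0 normalised tags in wild type and 0.824 in knockout (fold 26.83, 95% interval 4.65 to 1067). Gbp2 reached 11.7 tags against 2.06 and Gbp5 8.32 against 1.65 at the promoter, and Gbp5 had a further peak of 12.7 tags 33.6 kb below the gene. Gbp2b reached 24.5 tags against 2.47, 4.06 kb below the gene (fold 9.97, 95% interval 3.28 to 49.0), and Gbp3 15.5 against 2.47. On chromosome 5, Gbp9 held the strongest peak of the family, 49.6 tags in wild type and 9.89 in knockout, 0.181 kb above its upper end at chr5:105110443-105110633. Its knockout signal was the highest of all cDC1 member peaks, and its fold of 5.01 (95% interval 2.80 to 9.90) lay near the limit. Gbp4 followed with 30.7 against 4.12 (fold 7.45, 95% interval 3.10 to 23.4), and Gbp8 with 13.3 against 3.30 and the fold nearest to the limit, 4.02. Gbp6 and Gbp10 had none, with the nearest cDC1 peak 113 kb and 58.0 kb away.

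The immunity-related GTPases (IRG) disrupt parasite vacuoles, and the Irgm proteins regulate the others. Ifi47, an IRG gene by sequence, had 4 cDC1 peaks, 3 of them inside the gene. A pair of them, 10.6 kb and 11.4 kb after the start, held 19.2 normalised tags against the lowest knockout value (exact lower 95% limit of the fold 6.14) and 21.4 against 0.824 (fold 25.98, 95% interval 4.53 to 1040). Irgm2 had 2 peaks above its upper end, at 15.9 and 9.59 tags. Irgm1 and Iigp1 had none, and their nearest cDC1 peaks, of 31.3 and 6.91 tags, were assigned to Trim7 and Smim3 and lay 8.41 kb and 95.6 kb away.

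The Ifi200 genes encode PYHIN proteins, a family of nuclear and cytosolic proteins that bind DNA. In the cluster on chromosome 1, 9 of 11 members carried 21 cDC1 peaks, and Ifi213 and Ifi214 had none. The strongest lay inside Ifi209, 3.43 kb after its start at chr1:173634195-173634385, with 53.1 normalised tags in wild type and 2.88 in knockout (fold 18.41, 95% interval 6.18 to 59.6). Ifi205 reached 33.4 tags against 4.95 at 0.167 kb before its start (fold 6.75, 95% interval 3.00 to 18.7). Ifi207 reached 22.7 against 2.47 (fold 9.17, 95% interval 3.05 to 45.7), 161 bp after its start. Ifi211 reached 20.3, Ifi203 and Ifi204 13.8 each, Ifi202b 12.1, Ifi206 7.05 and Ifi208 4.93, the weakest member peak in cDC1. The median over the 21 peaks was 11.8 tags, and 7 of the 21 had knockout tags at the lowest value. The group was therefore broad in its coverage and mostly weak in its peaks.

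Of the other Ifi genes, Ifi27, Ifi27l2a, Ifi27l2b, Ifi30, Ifi35, Ifi44 and Ifi44l had no peak in either subset. Ifi30 encodes GILT, the lysosomal thiol reductase that prepares antigens for class II presentation. Its nearest cDC1 peak, of 35.0 normalised tags and assigned to Rab3a, lay 8.21 kb away. Ifi35 had a peak of 47.4 tags at 6.17 kb, assigned to Rpl27, and Ifi27l2a one of 14.1 tags at 7.96 kb, assigned to Ddx24. Around Ifi44 and Ifi44l the nearest cDC1 peak was 400 kb and 387 kb away.

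A cDC1 peak lay over the promoter window of 8 of the 43 members with one, which is 18.6%, against 24.4% of all 17492 genes. In cDC2 the count was 2 of 43, or 4.65%, against 1.46%. The 8 were Ifit2, Ifit1bl1, Gbp2, Gbp5, Gbp7, Ifi203, Ifi205 and Ifi209, and the 2 in cDC2 were Ifit2 and Oas3. The 13 members without a window, among them Gbp4, Gbp8, Gbp9 and Ifi204, could not enter these counts. Gbp8 and Gbp9 had a cDC1 peak 0.219 kb and 0.181 kb above their upper ends, and Gbp4 a cDC2 peak at 0.231 kb. Whether a start lies at these ends was not known here. Sequence copies also limit the counts. The windows of 12 members shared an identical run of at least 50 bases with the window of another gene elsewhere, among them Ifit3 with Ifit3b, Oas1a with Oas1g, Ifi206 with Ifi208 and Ifi213, Ifi209 with Ifi214, and Irgm2 with Igtp. Of these 12, Ifi203 and Ifi209 had a cDC1 peak over the window. The labels and headers do not say how reads that match several copies were placed, so peaks at these genes are uncertain, and the part of sequence copies in the missing peaks was not tested.

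In cDC2, 7 of the 56 members had a peak, which is 12.5%, against 9.53% of all protein-coding genes. They were Ifit2, Oas3, Ifitm1, Ifitm3, Gbp4, Ifi47 and Irgm2, with 12 of the 2776 peaks, and each of the 7 also had a cDC1 peak. Of all protein-coding genes 51.3% had a cDC1 peak. The share among all genes with a cDC2 peak was not counted, so the 7 are not set apart by this. With so few genes the share with a cDC2 peak moved with the assignment. It was 4 genes, or 7.14% against 7.49% of all genes, when peaks could go to genes of any type. It was 11 genes, or 19.6% against 9.59%, when a peak counted for every gene within 10 kb, so that 1 peak could count for several neighbours. These shares lay on both sides of the background, and no test was made of them. Wild-type signal at these 12 had a median of 25.6 normalised tags (range 15.7 to 85.9), against 24.1 over the list. Median knockout signal was 4.77 tags, against 3.66, and the median fold was 5.48, against 7.42. This list rests on 1 wild-type library.

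Ifitm3 had 3 cDC2 peaks. Beside the strongest, described above, a second held 42.9 normalised tags in wild type and 7.33 in knockout at chr7:140997977-140998167 (fold 5.86, 95% interval 2.20 to 20.4), 1.40 kb from the nearest cDC1 peak. The remaining one held 23.0 against 4.40 (fold 5.24, 95% interval 1.38 to 29.3). Gbp4 had a peak of 38.7 tags against 5.86, just above its upper end (fold 6.61, 95% interval 2.26 to 27.4), whose centre lay 0.384 kb from that of the cDC1 peak. Oas3 carried a pair, 31.4 against 6.59 inside the gene (fold 4.76, 95% interval 1.48 to 15.1) and 22.0 against 4.40 over the promoter (fold 5.0, 95% interval 1.38 to 29.3). The second of these lay 2.16 kb from the nearest cDC1 peak. Ifitm1 had 31.4 against 2.20 (fold 14.29, 95% interval 2.49 to 96.6). All of these values rest on at most 42.5 wild-type tags before scaling, which is why the intervals are wide.

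Ifit2 had a cDC2 peak of 28.3 normalised tags against 5.86 at its start (fold 4.82, 95% interval 1.57 to 20.9). Its other peak, of 15.7 tags, stood against the lowest knockout value, with an exact lower 95% limit of the fold of 2.44. Ifi47 had peaks of 23.0 against 5.13 (fold 4.49, 95% interval 1.16 to 16.9) and 20.9 against 3.66 (fold 5.72, 95% interval 1.23 to 26.9), and Irgm2 one of 22.0 against 4.40 (fold 5.0, 95% interval 1.38 to 29.3). Several folds lay just above the limit of 4.0. No Ifi200 gene had a cDC2 peak, against 9.53% of all protein-coding genes with one. The nearest cDC2 peak lay 9.12 kb from Ifi205 and was assigned to Olfr433.

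Most cDC2 member peaks lay at a cDC1 peak, whereas most cDC1 member peaks had no listed cDC2 counterpart. Of the 12 cDC2 member peaks, 9 (75.0%) shared 1 bp or more with a cDC1 peak, against 63.7% of all cDC2 peaks. Of the 64 cDC1 member peaks, the same 9 regions made up 14.1%, against 5.61% of all cDC1 peaks. Restricted to cDC1 peaks at or above 12.6 normalised tags, the weakest wild-type signal listed in cDC2, 8 of 38 member peaks overlapped a cDC2 peak (21.1%), against 8.42% of all such peaks. Of the 26 member peaks below that level, 1 overlapped a cDC2 peak, that of Ifit2 with 9.16 tags in cDC1 and 15.7 in cDC2. Neighbouring peaks in the Ifitm cluster make up 3 of the 9 regions, and no test was made of these shares.

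Within the 9 regions, wild-type signal was higher in cDC2 at 7 and higher in cDC1 at 2. Knockout signal was higher in cDC2 at all 9, and the fold was higher in cDC1 at all 9. At Ifi47, for example, the first region held 19.2 normalised tags in wild type and 0.412 in knockout in cDC1, and 23.0 and 5.13 in cDC2. The second region held 21.4 and 0.824 in cDC1, and 20.9 and 3.66 in cDC2. At the start of Ifit2 the values were 18.9 and 2.47 in cDC1, and 28.3 and 5.86 in cDC2. At 0.5 tag, knockout signal bottoms out at 0.412 in cDC1 and at 0.733 in cDC2 after normalisation. The weakest peak listed held 4.51 wild-type tags in cDC1 and 12.6 in cDC2. The whole lists differed in the same directions. Over all peaks of cDC2 and cDC1, median knockout signal was 3.66 and 1.65, and median wild-type signal 24.1 and 15.5. The median fold was 7.42 and 10.2. These counts were not made over all 1767 overlapping peaks, so they are no trait of the member regions. The part of the depth of each set in these comparisons was not tested.

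**Figure D4:**
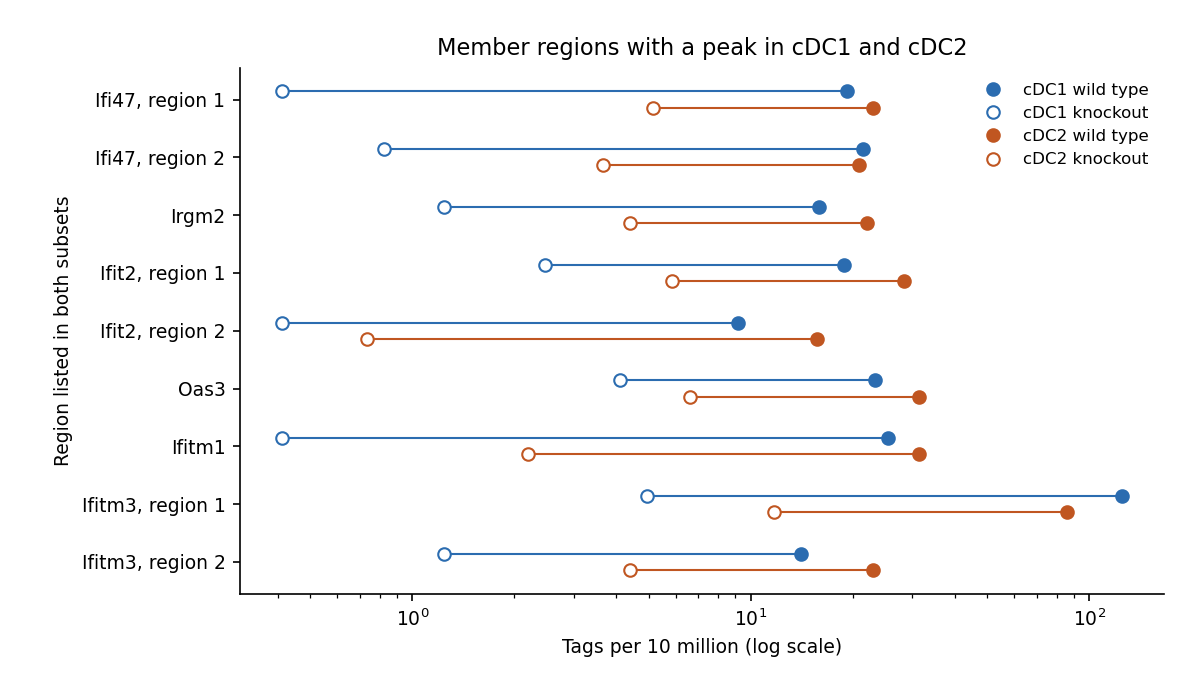
Normalised tags (horizontal axis, log scale) of the 9 regions with a peak in both subsets (vertical axis), with filled points for wild type, open points for knockout, blue for cDC1 and orange for cDC2. Knockout points of cDC2 lie to the right of those of cDC1 in all 9 regions, while its wild-type points lie to the right in 7 of them.

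Other genes linked to interferon or to the sensing of nucleic acids, among them further interferon-stimulated genes, were counted in the same way. Of 15 genes of interferon receptors and signalling, 15 had a cDC1 peak and 8 a cDC2 peak, against 51.3% and 9.53% of all genes. The highest-scoring were Ifngr1 at 139.1 normalised tags in cDC1 and Ifnar2 at 116.6, both receptor chains, Jak2 at 83.0 and Ifngr2 at 56.0. Of 9 interferon regulatory factors, 7 had a cDC1 peak and 3 a cDC2 peak, led by Irf5 at 114.3, Irf1 at 60.8, Irf8 at 50.7 and Irf2 at 50.6; Irf3 and Irf9 had none. Among 12 sensors of nucleic acids and related receptors the counts were 11 and 4, with Nlrp3 at 103.8, Tlr3 at 102.8, Aim2 at 52.7 and Tlr9 at 32.7. Of 32 other interferon-stimulated genes, 23 had a cDC1 peak and 6 a cDC2 peak, with Psmb9 at 93.6, Sp100 at 96.3, Trim25 at 85.0 and Slfn5 at 60.9, while Isg15, Rsad2, Bst2 and Cxcl10 were among the 9 without one. These lists were not tested against the 56 members.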

How the data were processed

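The titles of the CUT&Tag libraries gave the subset and genotype of each. The authors deposited 1 peak table per subset, made with HOMER findPeaks from a wild-type and a knockout tag set, per the file headers; these state peaks of 191 bp, an FDR of 0.001, a fold of at least 4.0 and a Poisson p of at most 0.0001 over knockout and over the surrounding 10 kb. The submitters' processing notes name builds GRCm38 and mm10. Neither the aligner nor the libraries that entered each set are named in the labels or headers.

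The deposited signal is wild-type tags per 10000000; deposited tags behind each fold are scaled to 1 of the sets and were scaled back. The deposited fold is a ratio of tags at equal depth, the deposited peak score is HOMER's, the deposited p-value is a Poisson p over tags, and the focus ratio, a fraction per the file headers, was not used. Knockout depth was worked out from the scaling between columns. At that depth 3 knockout tags equal 2.47 normalised tags in cDC1 and 4.40 in cDC2.

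Peaks were assigned to every protein-coding gene that holds their centre and, failing that, to the nearest gene; 11 cDC1 peaks and 1 cDC2 peak on sequences without such genes were left out. Intervals of a fold are exact (Clopper-Pearson) at 95%, with tags rounded, and repeated tags are not independent molecules. In an exact lower limit 0.5 tag counts as none. RefSeq promoter windows were checked for strand: 808 of 808 overlapping pairs on opposite strands were reverse complements. The interval code was tested on simulated data and the assignment on made-up genes. Python 3.11.15, pandas 2.3.3 and SciPy 1.17.1 were used. The tables hold no values per library, so the planned tests per library were not made.

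The members, lists and motifs were chosen with earlier results of these data known. Every member is named; the strongest-scoring peaks of 15 genes in cDC1 and all peaks in cDC2 are given in full, and up to 4 genes with the highest-scoring peaks are named per other list, apart from genes without a peak, which were named after their values were seen.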

Additional observations from a re-analysis of the deposited data

How the results depend on the processing

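No paired analysis was possible because the tables hold pooled tag sets and no value per library, and for the same reason no replicate was left out. Counting only peaks inside the gene left 18 members with a cDC1 peak (32.1%, against 37.3% of all genes) and 3 with a cDC2 peak (5.36%, against 5.33%). In cDC2 a fold of at least 8 left 2 members (3.57%, against 5.01%), assignment to genes of any type left 4 (7.14%, against 7.49%), and counting every gene within 10 kb gave 11 (19.6%, against 9.59%). The cause of these shifts was not tested. With the higher-scoring 50% of peaks, cDC1 member peaks had a median wild-type signal of 24.3 normalised tags, a change that follows from the selection, and the shared member regions numbered 4. The remaining counts stayed within 1.5 times the reported ones: 20 to 38 members in cDC1, 5 and 6 in cDC2, and 8 and 10 shared regions. In cDC1 the 20 were 35.7% of members, against 35.1% of all genes, and the 38 were 67.9%, against 57.1%. In cDC2 the 5 were 8.93%, against 5.24%, and the 6 were 10.7%, against 7.50%. The other medians stayed within a 95% interval of the reported median. That interval, taken from the ranks of the member peaks, treats them as independent. The peaks are not replicates and the alternatives reuse them, so it served only as a yardstick. An alternative added after the data were seen, which kept cDC1 peaks of at least 12.6 normalised tags, gave 25 members (44.6%, against 39.6% of all genes). In cDC2, with 4.77 M wild-type tags, 1 tag equals 2.09 normalised tags; the part of depth in its counts was not tested.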

Other observations

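Genes related to the members, but outside their symbols, also carried peaks within the member clusters. In the span from Irgm1 to Ifi47 on chromosome 11, 232 kb long, 19 cDC1 peaks were listed, of which 4 belonged to Ifi47. Their density was 8.20 per 100 kb, against 1.17 over the chromosomes as a whole. Gm5431 held the strongest, 79.9 normalised tags in wild type and 3.30 in knockout, and Gm12185 reached 23.4 tags. Tgtp1 and Tgtp2, which encode T-cell-specific GTPases of the IRG family, carried 3 peaks and 1 peak, up to 14.1 and 19.0 tags. In cDC2 only the 2 peaks of Ifi47 were listed in that span. In the Ifi200 cluster, Mndal, another PYHIN gene, had 2 cDC1 peaks of up to 17.6 tags. Aim2, the DNA sensor of the inflammasome, lies next to that cluster and had 8 cDC1 and 6 cDC2 peaks. The 11 Ifi200 members had 0 in cDC2. Only 9.53% of all protein-coding genes had a cDC2 peak, so this count does not set the 11 apart.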
